A study of Mus musculus with 6 samples.

Results

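The genes described here encode the nuclear subunits of respiratory complexes II, III, IV and V and cytochrome c, in RNA of mouse vBNST (the ventral part of the bed nucleus of the stria terminalis, in the extended amygdala). They were chosen by gene symbol: Sdha to Sdhd, symbols that start with Uqcr, Cox4 to Cox8 or Atp5, and Cyc1 and Cycs, without Atp5s, Atp5sl and pseudogene copies. This gave 46 of the 29547 rows of the table, with 4 in complex II, 9 in complex III, 1 for cytochrome c, 17 in complex IV and 15 in complex V. Ribosomes carrying phosphorylated S6, a mark that increases when neurons are active, were immunoprecipitated, and their RNA was depleted of rRNA and sequenced. The design text dates collection of the tissue at 90 min past the test, CS+ or CS-, and the 6 libraries are titled Con 1 to 3 and CS 1 to 3. Which test the CS group underwent, what the Con group underwent, and the strain and age of the mice are not in the labels. Separate mice are not stated for the libraries either. Each p-value therefore rests on the spread among these 6 libraries, in part pooled over rows, and that spread may be technical. No library is labelled as input RNA, and the antibody catalogue number differs from sample to sample, so how far precipitation enriched any transcript was not measured.

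The respiratory chain of the inner mitochondrial membrane passes electrons from nutrients to oxygen and pumps protons, and complex V, the ATP synthase, uses the return of those protons to make ATP. Complex II, or succinate dehydrogenase, is built from nuclear genes alone, while complexes III, IV and V each join nuclear subunits to subunits encoded in mitochondrial DNA. Neurons draw most of the ATP that ion pumping and synaptic transmission consume from this pathway.

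Libraries held 765769, 1200995 and 1427784 assigned reads in Con and 1578775, 1365181 and 2342686 in CS, and the genes of complexes II to V held 27828 reads in all. Levels are RPKM (reads per kilobase of the row's exons, relative to the assigned reads of the library) after each library was scaled on its median row. In the deposited values CS lay higher by 0.37 (log2) at the median row, and the scaling took this away. Every log2 change below is CS minus Con on the scale of log2(RPKM + 0.1), with 3 libraries a group. Its standard error (SE) is the moderated one of limma, which draws the variance of a row toward that of all tested rows. Each change was tested by limma with Benjamini-Hochberg adjustment at 0.05 over 20550 rows with a mean of at least 0.5 RPKM. All 46 genes passed that minimum, and 37 had at least 60 reads, the minimum for a second test by limma voom on the reads themselves. The sum of 5 neuronal marker genes lay between 231 and 261 RPKM in Con and between 230 and 257 in CS, and that of 5 astrocyte markers between 49.7 and 63.7 and between 50.6 and 60.7. The sum of 4 oligodendrocyte markers lay between 44.4 and 91.2 RPKM in Con and between 38.5 and 52.4 in CS.

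Of the 46 genes, limma called Atp5c1 higher and Atp5k lower in CS, both of the ATP synthase. That is 2 genes where 0.968% of all tested rows were called. Limma voom called these and Cox7a2l, lower in CS, so 3 of 37 genes where 6.55% of 10463 rows were called. Over all rows most calls were lower in CS, with 163 lower and 36 higher by limma. By limma voom 658 were lower and 27 higher, so the direction of Atp5k and Cox7a2l was the common one. The other genes did not pass either test. In 33 of the 46 genes the estimate was higher in CS and in 13 it was lower, with a median change of 0.23, while 52.0% of all tested rows had a higher estimate and their median was 0.03. All CS libraries lay above all Con libraries for 9 genes and below them for 3 (7.93% and 11.2% of tested rows). Among the 37 genes with at least 60 reads these counts were 8 and 3, where 11.6% and 14.9% of such rows lay apart in those directions. A change in this precipitated RNA can reflect the number of cells of a type, the RNA per cell or the share precipitated with phosphorylated S6. These cannot be told apart here.

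**Figure D1:**
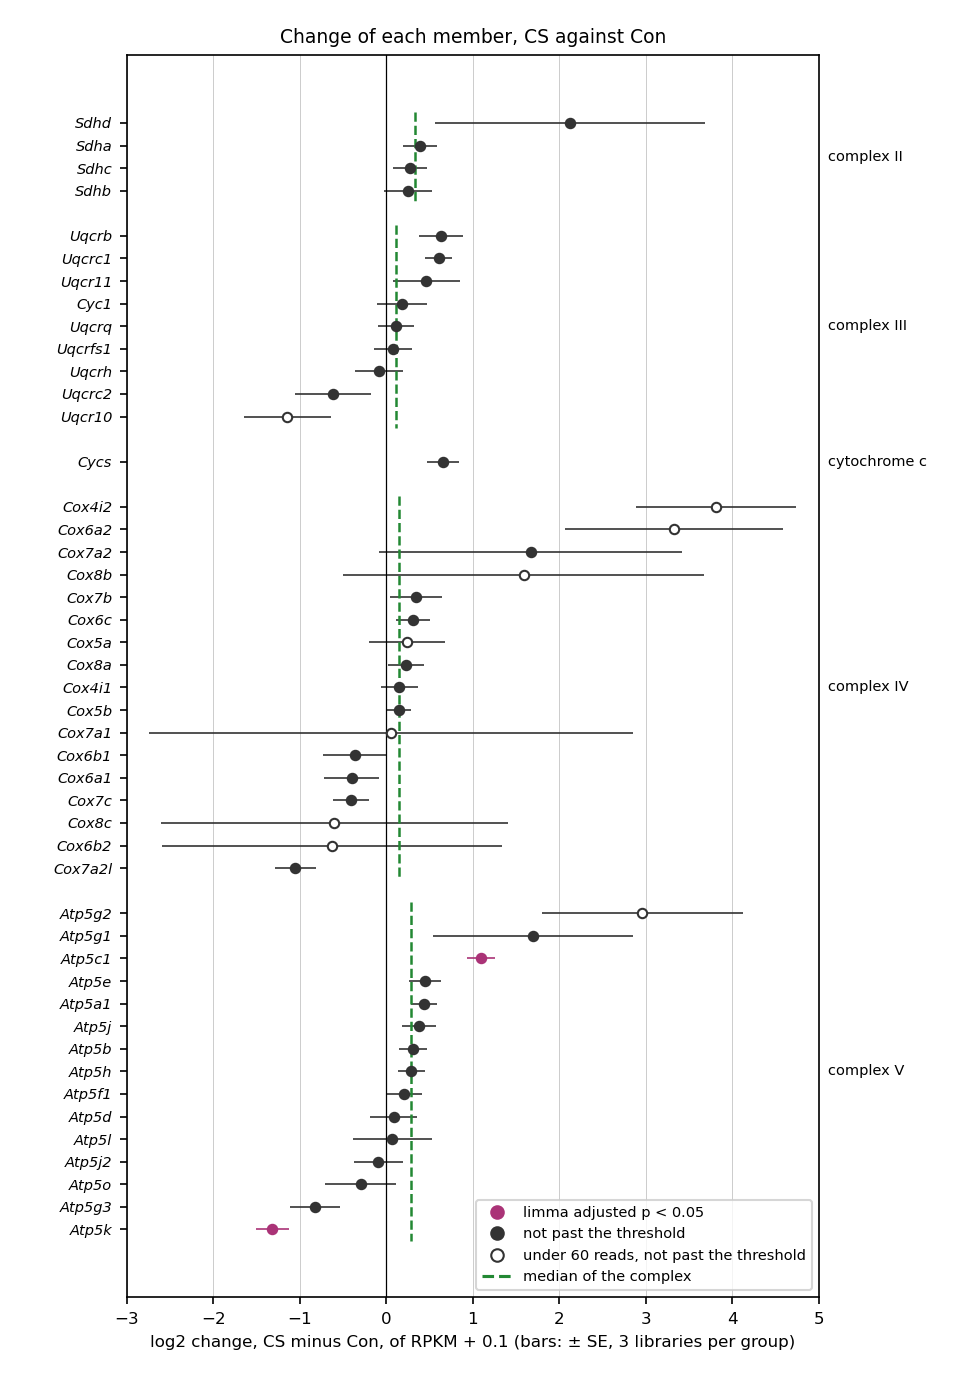
Log2 change (CS minus Con, horizontal axis) of each of the 46 genes, grouped by complex. Bars are 1 moderated SE with 3 libraries a group, and dashed lines mark the median of each complex. Atp5c1 at 1.09 and Atp5k at -1.32, both in complex V, are the genes past the limma threshold. Cox7a1, with an SE of 2.80 from 24 reads, carries the widest bar.

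Complex II oxidises succinate in the citric acid cycle and hands its electrons to ubiquinone. All 4 estimates were higher in CS, with a median of 0.33, and none passed either test. Sdha, the flavoprotein that binds succinate, had levels of 34.3, 43.6 and 28.0 RPKM in Con 1, 2 and 3 and of 49.0, 42.5 and 45.1 RPKM in CS 1, 2 and 3, the order kept for all values by library. The groups overlapped only because Con 2 lay above CS 2. Its change was 0.39 ± 0.19 SE (limma adjusted p = 0.48). Sdhc, a membrane anchor of the complex, read 12.3, 10.8 and 12.7 RPKM in Con and 15.1, 16.9 and 11.9 RPKM in CS. CS 3 lay within the Con range, and the change was 0.27 ± 0.20 (limma adjusted p = 0.654). Sdhb, the iron-sulfur subunit, averaged 10.6 RPKM in Con and 12.8 in CS. Sdhd, the other anchor, had the lowest level of the complex and no read in Con 3, which left its change of 2.12 with an SE of 1.56. Summed over the 4 genes, complex II came to 62.7, 73.6 and 51.9 RPKM in Con and 82.0, 84.8 and 74.5 RPKM in CS. These groups did not overlap, although the lowest CS library lay only just above the highest Con library, and the ratio of the means was 1.28.

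Complex III passes electrons from ubiquinone to cytochrome c. Its estimates were mixed, 6 higher and 3 lower with a median of 0.11, and none passed either test. That median had no stable sign, at -0.02 without CS 2, 0.03 without CS 1 and 0.28 without CS 3. Uqcrc1, a core protein on the matrix side, read 14.3, 14.5 and 11.9 RPKM in Con and 20.9, 20.7 and 20.3 RPKM in CS. The CS libraries were nearly equal and all above Con, with a change of 0.60 ± 0.16 SE (limma adjusted p = 0.173, limma voom adjusted p = 0.0847). The partner core protein Uqcrc2 had the opposite sign, at 16.8, 7.74 and 12.5 RPKM in Con and 5.13, 13.3 and 6.52 RPKM in CS. Here CS 2 lay inside the Con range, and the change was -0.62 ± 0.44. Of the small subunits, Uqcrb had 50.7, 57.9 and 31.5 RPKM in Con and 67.6, 81.2 and 63.1 RPKM in CS. All CS libraries were above Con, by 0.63 ± 0.25 (limma adjusted p = 0.38). Uqcrh, the acidic hinge protein, was the most abundant transcript of the complex, with 164, 90.3 and 172 RPKM in Con and 116, 153 and 122 RPKM in CS. Con 2 lay below every CS library and the other Con libraries above, so its estimate of -0.08 ± 0.28 had no stable sign. The electron carriers Cyc1, a cytochrome, and Uqcrfs1, the Rieske iron-sulfur protein, had changes of 0.18 ± 0.29 and 0.08 ± 0.22. Uqcr11 and Uqcrq, small subunits of the membrane part, had changes of 0.46 ± 0.39 and 0.11 ± 0.21. Uqcr10 had 36 reads and the lowest estimate of the complex, -1.14 ± 0.50.

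Cytochrome c carries electrons from complex III to complex IV. Its gene Cycs lies on chromosome 6 from 50562563 to 50566538 on the minus strand of GRCm38, and its row holds 3404 bases of exons. Levels were 9.99, 12.1 and 10.4 RPKM in Con and 19.2, 14.8 and 17.4 RPKM in CS. All CS libraries were above all Con libraries, by 0.65 ± 0.19 SE on the log2 scale, but it was not called (limma adjusted p = 0.205, limma voom adjusted p = 0.135). The 100 bases before its RefSeq start (GRCm38.p6, chr6:50566570-50566669, minus strand) hold a match to the motif of nuclear respiratory factor 1 (NRF1), a transcription factor known for respiratory chain promoters. They are shown with the match in capitals.
Cycs: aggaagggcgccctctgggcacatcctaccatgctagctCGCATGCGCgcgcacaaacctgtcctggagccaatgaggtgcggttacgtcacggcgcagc

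Complex IV, cytochrome c oxidase, reduces oxygen to water. Estimates were higher in CS for 11 of its 17 genes and lower for 6, with a median of 0.15. Cox4i1, the usual form of the regulatory subunit 4, was the most abundant of all 46 genes, at 181, 122 and 199 RPKM in Con and 174, 185 and 188 RPKM in CS. Cox5b, which sits on the matrix side, came next within complex IV, with 144, 125 and 126 RPKM in Con and 140, 135 and 160 RPKM in CS. Both overlapped between the groups, with changes of 0.15 ± 0.21 and 0.14 ± 0.14 SE.

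Cox7a2l differed from these. It encodes a relative of subunit 7a, also called SCAF1, that links complex IV to complex III in supercomplexes, and lies on chromosome 17 from 83501919 to 83514333 on the minus strand. Levels were 95.4, 86.1 and 103 RPKM in Con and 44.7, 62.6 and 34.0 RPKM in CS. Every CS library was below every Con library, and the ratio of the means was 0.496. The change of -1.05 ± 0.24 SE missed the threshold by limma (adjusted p = 0.117), and by limma voom Cox7a2l fell in CS (adjusted p = 0.0188). The voom call was lost without Con 3 or CS 3 (adjusted p = 0.0729 and 0.0824) and when library totals replaced the median scaling (adjusted p = 0.0869). Divided by Cox4i1 within each library, so that the scaling cancels, it gave 0.526, 0.703 and 0.519 in Con and 0.257, 0.339 and 0.181 in CS. These ratios did not overlap either. The pair was chosen after its values were seen, so no test was made.

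Several complex IV subunits exist as a form used by most tissues and a form known from muscle, testis or lung, and in vBNST the common forms held nearly all of the level. Cox6a1, of most tissues, read 37.9, 31.8 and 60.3 RPKM in Con and 37.3, 38.1 and 22.2 RPKM in CS. Its muscle counterpart Cox6a2 had 1 read in Con and 12 in the deeper CS libraries. That is 2.17, 0 and 0 RPKM in Con and 3.35, 3.84 and 2.08 RPKM in CS. The groups overlapped, and Cox6a2 was not called (limma adjusted p = 0.355). Cox6b1, which holds complex IV dimers together, read 50.1, 57.0 and 21.9 RPKM in Con and 26.5, 30.4 and 36.5 RPKM in CS, against 7 reads in all for the testis form Cox6b2. The Cox6a1 and Cox6b1 levels overlapped between the groups, with changes of -0.40 ± 0.32 and -0.36 ± 0.37 SE. Cox8a read 35.3, 44.1 and 28.5 RPKM in Con and 44.9, 35.9 and 44.2 RPKM in CS, while Cox8b had 8 reads and Cox8c 4. Cox8a made up 93.1% of the Cox8 level and its groups overlapped.

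In the 7a pair the common form Cox7a2 made up 57.7% of the mean level. This is an average over libraries, and most had no read of Cox7a1. Cox7a2 read 0, 14.6 and 6.40 RPKM in Con and 12.7, 4.15 and 6.38 RPKM in CS. The muscle form Cox7a1 read 11.1, 0 and 0 RPKM in Con and 21.3, 0 and 0 RPKM in CS, from 24 reads. Its reads came from Con 1 and CS 1 alone, and neither gene gave a usable estimate of change (SE of 1.75 and 2.80). Cox4i2, the form of subunit 4 known from lung, had no read in Con and 0.723, 2.49 and 1.80 RPKM in CS, from 8 reads. The CS mean was 1.23-fold a floor of 3 reads over the Con libraries, 1 in each and scaled like the levels. That floor is a convention and gives no lower bound on the change. Limma did not call Cox4i2 (adjusted p = 0.138). The muscle genes Myh7, Ckm and Acta1 together read between 14.8 and 26.0 RPKM in Con and between 24.3 and 27.5 in CS. Whether muscle RNA took part in these few reads was not tested. Of the remaining genes, Cox6c, Cox7b and Cox5a had estimates between 0.24 and 0.35, and Cox7c had -0.41.

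Complex V, the ATP synthase, held both genes that limma called and 13750 of the 27828 reads. Estimates were higher for 11 genes and lower for 4, with a median of 0.29. Counts by part of the enzyme rest on few genes each. All 5 genes of the F1 head and central stalk had higher estimates, 3 of 4 in the peripheral stalk, and 2 of 3 in the proton-carrying c ring. Of 3 other membrane genes, 2 had lower estimates.

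Atp5c1 encodes gamma, the shaft that turns inside the F1 head. Its row covers 10 exons on chromosome 2 between 10056016 and 10080510 on the minus strand, and overlaps no other row. Levels were 16.3, 14.9 and 13.1 RPKM in Con and 30.7, 34.2 and 29.7 RPKM in CS, from 83 and 363 reads. Atp5c1 rose in CS, with every CS library well above every Con library. The change was 1.09 ± 0.16 SE (limma adjusted p = 0.0392, limma voom adjusted p = 0.014). The limma call was lost without any 1 of the 6 libraries, with adjusted p from 0.0671 to 0.172, and the voom call without Con 1 or Con 3 (adjusted p = 0.0501 and 0.056). A ratio to Atp5b was taken with the values of both genes in view, so it was not tested. Divided by Atp5b within each library, which cancels the scaling, Atp5c1 gave 0.173, 0.155 and 0.183 in Con and 0.293, 0.330 and 0.264 in CS. The 100 bases before its RefSeq start (chr2:10080511-10080610, minus strand, GRCm38.p6) hold no match to any of the motifs searched, and so stand in lower case, beside the Cycs stretch.
Atp5c1: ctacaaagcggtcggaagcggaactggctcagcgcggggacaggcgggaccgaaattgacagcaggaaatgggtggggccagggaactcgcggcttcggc

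Atp5a1 and Atp5b encode alpha and beta, which alternate in the head and, in beta, hold the catalytic sites. Atp5a1 read 105, 88.8 and 92.8 RPKM in Con and 125, 146 and 117 RPKM in CS, and Atp5b read 93.9, 95.7 and 71.5 RPKM in Con and 105, 104 and 112 RPKM in CS. Both lay higher in every CS library than in any Con library, by 0.44 ± 0.15 and 0.31 ± 0.16 SE, and neither passed (limma adjusted p = 0.301 and 0.502). The ratio of the 2 overlapped between the groups. Atp5e, the small epsilon subunit of the stalk foot, was also apart, at 0.45 ± 0.19, and Atp5d, the delta subunit beside it, was not, at 0.08 ± 0.27. Summed over the 5 genes, the head and central stalk came to 230 ± 18.2 RPKM in Con and 310 ± 18.8 in CS (SD, n = 3 libraries).

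In the peripheral stalk, which holds the head still, Atp5h (subunit d) was by far the most abundant, with 166, 150 and 131 RPKM in Con and 172, 169 and 203 RPKM in CS. The groups lay apart by a small margin and the change was 0.29 ± 0.16 SE. Atp5j (coupling factor 6) and Atp5f1 (subunit b) had estimates of 0.38 ± 0.20 and 0.21 ± 0.20, and Atp5o, which encodes the protein that joins stalk and head, had -0.30 ± 0.41. Summed over the 4 genes, the peripheral stalk came to 203 ± 22.9 RPKM in Con and 242 ± 21.5 in CS (SD, n = 3 libraries). The sum of the head and central stalk was divided by it within each library. That ratio lay between 1.09 and 1.16 in Con and between 1.11 and 1.42 in CS, and so overlapped. The Atp5j row shares 397 bases with Gabpa on the opposite strand, and the Atp5o row 287 bases with Donson on the same strand. How many reads such pairs share was not measured.

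The c ring is built from a single mature protein that 3 genes encode. Atp5g3 held 80.3% of the summed level, with 10.2, 13.8 and 16.2 RPKM in Con and 9.92, 7.19 and 5.68 RPKM in CS. All CS libraries lay below Con, but CS 1 lay only just below Con 1, and the change of -0.83 ± 0.29 SE was not called (limma adjusted p = 0.307). Atp5g1 read 0, 1.22 and 1.05 RPKM in Con and 2.90, 2.66 and 0.649 RPKM in CS, from 67 reads. Atp5g2 read 0.883, 0 and 0 RPKM in Con and 0.680, 3.12 and 2.33 RPKM in CS, from 22 reads. Both overlapped between the groups, with estimates of 1.69 ± 1.16 and 2.96 ± 1.16. In the means, Atp5g3 made up 92.7% of the c ring level in Con and 64.9% in CS, while the summed level was 14.4 ± 3.15 and 11.7 ± 2.66 RPKM (SD). These shares are per length and depend on the rows. The Atp5g1 row has 4912 bases, that of Atp5g2 1675 and that of Atp5g3, with 188 reads, 2181.

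Atp5k encodes subunit e, a small membrane protein known for its part in pairing ATP synthases into dimers. Its row is short, with 616 bases in 3 exons on chromosome 5 between 108433244 and 108434448 on the minus strand. Levels were 228, 166 and 258 RPKM in Con and 83.2, 86.9 and 87.4 RPKM in CS, from 398 and 324 reads. Atp5k fell in CS, where its libraries were nearly equal and lay far below the lowest Con library. The change was -1.32 ± 0.19 SE (limma adjusted p = 0.039, limma voom adjusted p = 0.00459). The limma call held without Con 2 and was lost without any other single library (adjusted p from 0.0877 to 0.172), and it was lost on the deposited scale (limma adjusted p = 0.0834). By voom it held without each library in turn. Of the other membrane genes, Atp5j2 (subunit f) and Atp5l (subunit g) had estimates of -0.09 ± 0.28 and 0.07 ± 0.46. Subunit g works beside subunit e in dimers, and its levels overlapped between the groups. The Atp5l row spans 6443 bases, 78.7% of the gene, so its level per length is low for its reads.

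The Atp5k promoter holds a palindromic NRF1 match. The 30 bases around it are shown with the match in capitals (chr5:108434430-108434459, minus strand, GRCm38.p6). They lie before the RefSeq start and reach into the first exon of the deposited row.
Atp5k: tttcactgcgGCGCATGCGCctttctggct

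Other values stood beside those of Atp5k and Cox7a2l. Of the oligodendrocyte markers Mbp, Mog, Mag and Mobp, 3 had lower estimates in CS and Mog, without a read in Con 1, a higher one. Their summed level, given above, was lower on average in CS and overlapped between the groups. Short rows were also lower more often. By limma voom, 97 of 609 rows under 1000 bases were called lower and 2 higher, against 491 lower and 18 higher of 8857 rows of 2000 bases or more. Atp5k belongs to the short rows, while Cox7a2l, with 1147 bases, falls between 1000 and 2000 bases, where 70 of 990 rows were called lower and 7 higher. The part of oligodendrocytes and of row length in these results was not tested. Among the 7 genes here under 1000 bases with at least 60 reads, 4 had higher estimates, and the median was 0.23. Over all 609 such rows, 44.2% had higher estimates and the median was -0.12. The pseudogene row Atp5k-ps2, left out by the rule, read 49.3, 40.9 and 32.9 RPKM in Con and 8.14, 18.7 and 6.74 RPKM in CS, from 38 reads. It lay below Con in every CS library, as did Atp5k, and was not called (limma adjusted p = 0.0894). Reads of near-identical copies may have been divided between rows, so both values are uncertain to that degree.

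**Figure D2:**
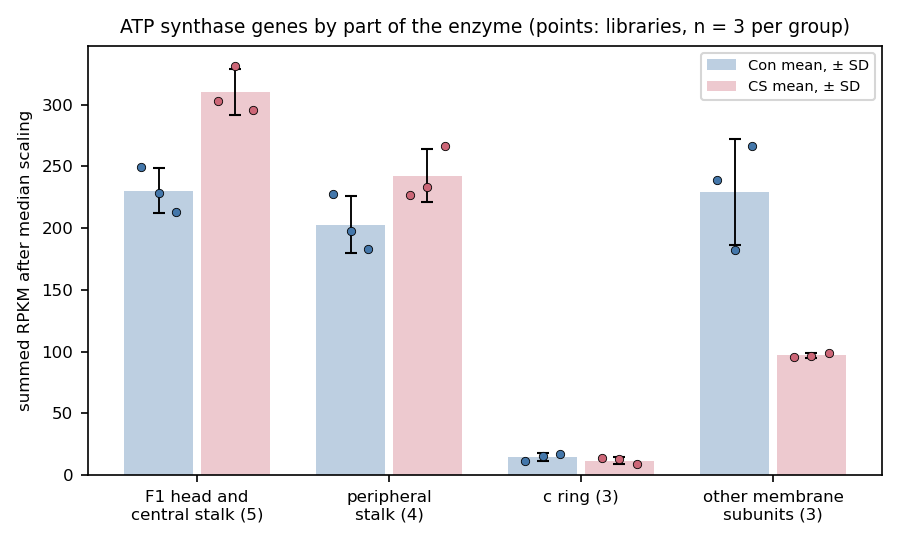
Summed level of the ATP synthase genes in each part of the enzyme (RPKM after median scaling, vertical axis from 0), with bars at the mean of 3 libraries, whiskers of 1 SD and a point for each library. The F1 head and central stalk went from 230 to 310 RPKM and the peripheral stalk from 203 to 242. The other membrane subunits, most of it Atp5k, went from 229 to 97.0 RPKM.

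The genes that limma called, both of complex V, changed in opposite directions. The ratio of Atp5k to Atp5c1, in which the scaling of a library cancels, was 14.01, 11.2 and 19.7 in Con and 2.71, 2.54 and 2.94 in CS. Atp5k over Atp5h gave 1.38, 1.11 and 1.96 in Con and 0.483, 0.515 and 0.430 in CS. Neither ratio overlapped between the groups, which follows by construction. Atp5k lay lower, and Atp5c1 and Atp5h higher, in every CS library than in any Con library. Both pairs were also chosen after their values were seen, so no test was made. Summed over all 15 genes the 2 directions met: complex V came to 677 ± 51.9 RPKM in Con and 661 ± 19.0 in CS (SD). Without Atp5k it was 459 ± 38.8 and 575 ± 16.8, a ratio of 1.25, and leaving out the gene called lower raises that ratio by construction.

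Comparison of the complexes rested on sums and medians, since genes of a complex are not replicates of a condition. The summed level of complex III was 329 ± 22.4 RPKM in Con and 358 ± 34.0 in CS, and that of complex IV 597 ± 37.3 and 576 ± 12.3 (SD, n = 3). The ratio of the group means was 1.28 for complex II, 1.09 for III, 0.966 for IV and 0.977 for V. Relative to complex IV in the same library, complex II lay between 0.0865 and 0.132 in Con and between 0.127 and 0.151 in CS, and complex III between 0.543 and 0.557 and between 0.554 and 0.698. Both overlapped slightly, as did complex II over V, and complex V over IV overlapped widely. In none of these 4 ratios did the groups separate, and 3 libraries against 3 cannot give an exact permutation p below 0.1 for such a value. Over all 46 genes the sum was 1676 ± 105 RPKM in Con and 1693 ± 30.7 in CS. Without Atp5k and Cox7a2l it was 1364 ± 84.8 and 1560 ± 16.1, but these genes were left out because they were called lower, which raises the ratio by construction.

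**Figure D3:**
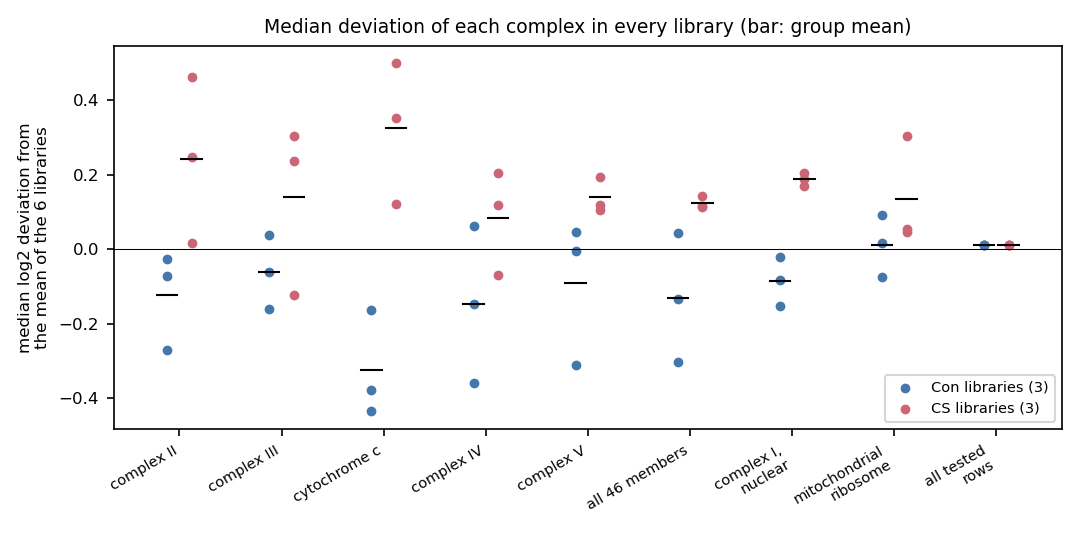
Median log2 deviation of the genes of each complex from their mean over the 6 libraries (vertical axis), with a point for each library and a bar at the group mean. Medians of complexes III and IV and of mitochondrial ribosomal proteins overlap between Con and CS. Those of II, V, cytochrome c, all 46 genes and nuclear complex I do not. All tested rows lie near 0 in both groups because of the scaling.

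Levels ran over a wide range within each complex, as the plot of every library shows. The 7 most abundant genes, Cox4i1, Atp5h, Atp5k, Cox5b, Uqcrh, Atp5a1 and Atp5b, made up 57.9% of the summed level. Complex II, with a median gene at 11.3 RPKM in Con and 13.7 in CS, had no gene among them. Across the 37 genes with at least 60 reads, level and change had a Spearman correlation of -0.09, and row length and change one of 0.22, as a description over genes that share the same 6 libraries.

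**Figure D4:**
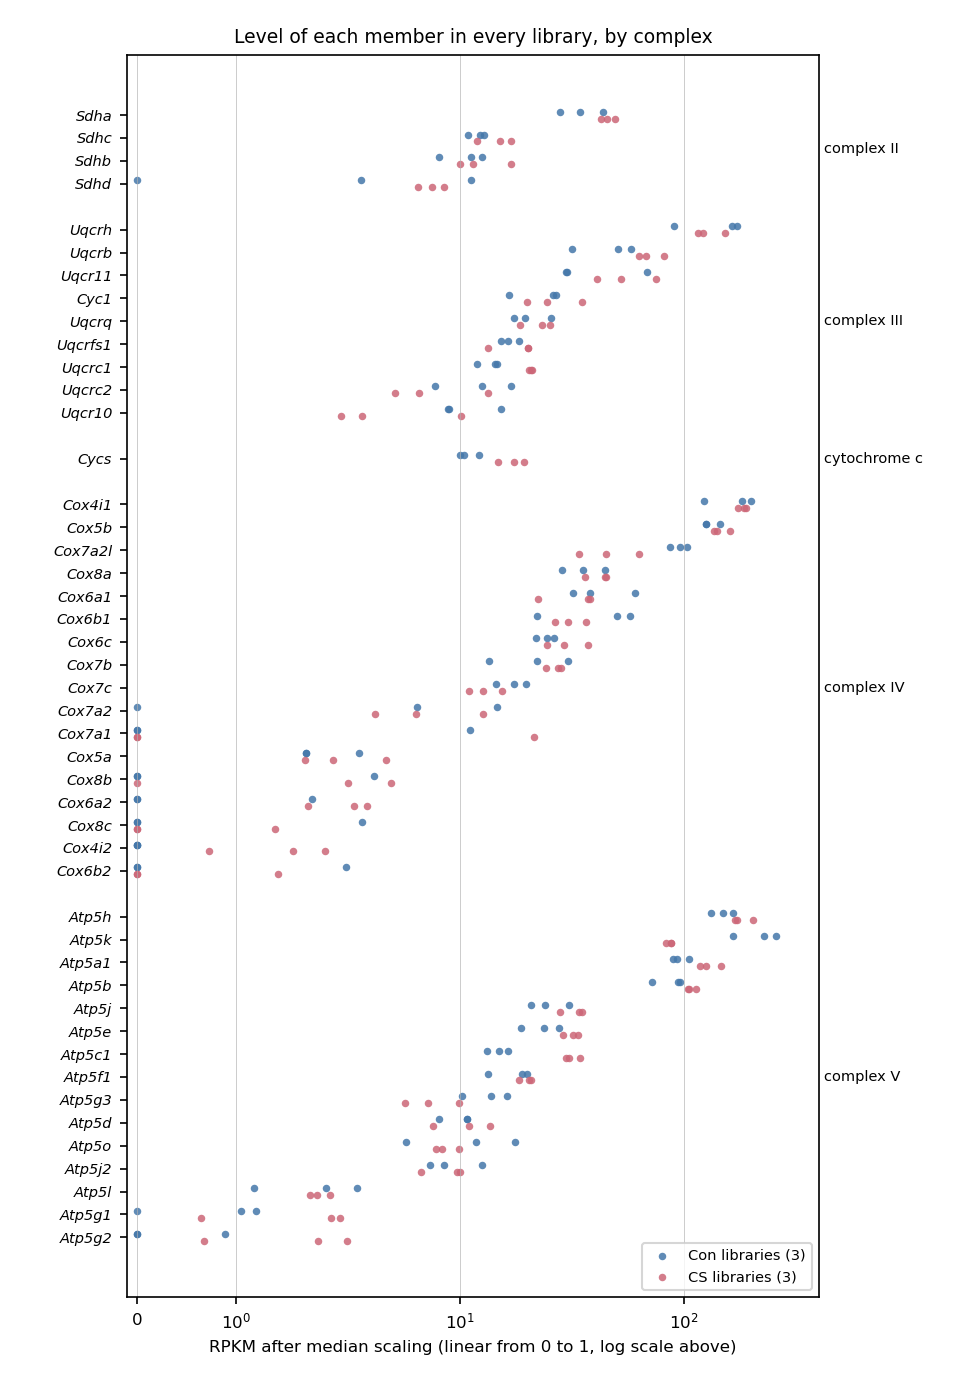
Level of each of the 46 genes in each library (RPKM after median scaling, linear from 0 to 1 and logarithmic above), grouped by complex and ordered by mean level. The CS points of Atp5c1 lie to the right of its Con points and those of Atp5k and Cox7a2l to the left, while most other genes overlap.

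The balance of directions depended on the scaling. As deposited, 19 of the 46 genes lay higher in all CS libraries and 2 lower, and among the 37 with at least 60 reads these were 17 and 2, where 29.5% and 8.31% of all such rows lay apart. The genes took between 0.221% and 0.268% of assigned reads in Con and between 0.348% and 0.382% in CS. Other lists were also higher: nuclear complex I subunits took 0.107% to 0.130% in Con and 0.176% to 0.193% in CS. The 5 neuronal markers took 0.141% to 0.164% and 0.186% to 0.212%. The share of the 5 astrocyte markers overlapped, at 0.019% to 0.028% and 0.027% to 0.034%. Atp5c1 was called by limma with either scaling, and Atp5k and Cox7a2l kept a lower estimate.

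Nuclear subunits of complex I, the entry point for electrons of NADH, had higher estimates for 31 of 37 genes. Their median was 0.33 and no gene was called by either test. The median deviation of these genes lay between -0.15 and -0.02 in the Con libraries and between 0.17 and 0.20 in the CS libraries. The 13 protein-coding transcripts of mitochondrial DNA, which supply the remaining subunits, had 9 higher and 4 lower estimates, a median of 0.11, and none called. Their summed level varied widely between libraries of a group, from 2089 to 6923 RPKM in Con and from 2944 to 7415 in CS. Mitochondrial ribosomal proteins had 48 higher and 30 lower estimates, with a median of 0.21. Of these, Mrpl2, a protein of the large subunit named after its values were seen, read 22.8, 26.4 and 27.3 RPKM in Con and 14.6, 12.8 and 9.38 RPKM in CS. All CS libraries lay below Con, and it was called lower by limma voom (adjusted p = 0.0416) and not by limma (adjusted p = 0.0894). That is 1 of 53 genes of this list tested by voom, where 658 of 10463 rows were called lower.

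The assembly factors of complexes II to V, which insert cofactors and join subunits, had 20 higher and 16 lower estimates, with a median of 0.17. Of these 36 genes limma called Cox20, a chaperone of a mitochondrially encoded subunit of complex IV, which fell in CS. It read 23.4, 22.4 and 24.4 RPKM in Con and 9.03, 9.61 and 6.82 RPKM in CS, with a change of -1.47 ± 0.19 SE (limma adjusted p = 0.0301, limma voom adjusted p = 0.0186). Both groups were tight and did not overlap. Of 14 regulators of these genes, 7 had higher and 7 lower estimates, with a median of 0.02. Ppargc1b, a coactivator of mitochondrial gene expression, read 24.1, 34.7 and 19.9 RPKM in Con and 13.8, 11.6 and 12.2 RPKM in CS. All CS libraries lay below Con, and it was called lower by limma voom (adjusted p = 0.0236) and not by limma (adjusted p = 0.123). By voom, 1 of 20 assembly factors and 1 of 11 regulators tested were called, where 658 of 10463 rows were called lower. Limma called 163 of 20550 rows lower.

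Promoters were described from RefSeq (GRCm38.p6) windows of 250 bases before to 50 after each start, which were given for 35 of the 46 genes. The NRF1 motif GCGCATGCG, searched on both strands, matched in 7 of the 35 genes, against 1.95% of all 27025 genes with such windows. These were Atp5g2, Atp5k, Atp5l, Cox6a1, Cycs, Uqcr11 and Uqcrc1. The motif is nearly a palindrome, so some places match on both strands. The ETS motif CCGGAAG, the core of the GABPA site, matched in 34.3% against 9.93%. The YY1 motif ATGGCGGC matched in none against 2.60%, which says only that these letters are not in the windows. Windows of these genes were richer in G and C, with a median of 56.5% against 52.7%, and held a median of 19 CG pairs against 7. Genes with an NRF1 match did not share a direction: 5 had higher and 2 lower estimates, and they included both Cycs and Atp5k, while 19 of the 28 genes without a match had higher estimates.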

How the data were processed

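RNA of phosphorylated ribosomes from mouse vBNST was analysed in 6 libraries. The authors deposited 1 table of RPKM per row. Trimming used Trimmomatic 0.36 and counting featureCounts (Subread 1.5.1), and the builds are GRCm38 and mm10, per the submitters' processing notes. The aligner, the strand setting and the treatment of reads with several matches were not given in the sources used here. Row lengths equal the union of exons in all 29547 rows. RPKM times length came out as whole reads for 100% of the values above 0, within 0.01 read, which gave the reads behind each value.

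Levels were scaled on the median deviation of each library. The comparison of CS and Con was made on log2(RPKM + 0.1) with lmFit and eBayes (trend) of limma 3.58.1, under R 4.3.3, two-sided, over 20550 rows with a mean of at least 0.5 RPKM. Limma voom ran on 10463 rows with at least 60 reads. The procedures were checked on simulated reads with the same spread for every row, which does not measure error rates in these libraries. Libraries within a group had Pearson correlations between 0.64 and 0.70. Folds, ratios and sums use scaled RPKM. Python 3.11.15 and pandas 2.3.3 were used for sums, overlaps and promoters. The genes, the comparison lists and the rule for the genes named were chosen with earlier results of these data known. That rule took genes past either test, the 2 of each complex with the smallest p and the 2 with the highest level, and isoform families; further genes with values by library were picked with their values in view. Alternatives covered the pseudocount, the filter, the scaling, the variance trend, a replicate block, voom, and fits without each library. Deviations of libraries with the same number had correlations between -0.07 and 0.02, so the numbers were not taken to pair libraries. Of the 46 genes, 45 matched RefSeq by symbol, and Atp5f1 matched as a synonym of Atp5pb. There were 12 genes whose rows overlap another row. A further marker of the oligodendrocyte list is not reported here.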

Additional observations from a re-analysis of the deposited data

How the results depend on the processing

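The number of genes called by limma, 2 with the settings used, depended on the processing. It was 0 with a pseudocount of 1, with no filter on low values, with no variance trend and with the replicate block, under which no row of the table was called. It was 1 as deposited and 1 with quantile normalization (Atp5c1 in both), 2 over rows with at least 60 reads, 3 with voom and 5 with voom on library totals (Atp5a1, Atp5c1, Cycs and Uqcrc1 higher, Atp5k lower). Leaving out each library gave between 0 and 1 by limma, the 1 being Atp5k without Con 2, and by voom, chosen after seeing the data, between 1 and 3. Adjusted p over the limma fits without a library ran from 0.0671 to 0.172 for Atp5c1 and from 0.0177 to 0.172 for Atp5k. Over all 21 alternatives neither changed sign: Atp5c1 ranged from 1.003 to 1.47, Atp5k from -1.51 to -0.94 and Cox7a2l from -1.29 to -0.68.

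Leaving out 1 library, the median of complex II lay between 0.26 and 0.41, of III between -0.02 (without CS 2) and 0.28 (without CS 3), of IV between 0.08 (without Con 3; 0.10 without Con 2) and 0.21, and of V between 0.16 (without Con 3) and 0.35. Scaling moved the complexes. Medians of complexes II, III, IV and V were 0.70, 0.48, 0.52 and 0.66 as deposited, 0.56, 0.34, 0.48 and 0.63 with quantile normalization, and 0.70, 0.51, 0.53 and 0.64 with voom on library totals. Log2 ratios of their sums were 0.71, 0.49, 0.32 and 0.34 as deposited and 0.57, 0.42, 0.26 and 0.29 with quantile normalization, so the ratios of IV and V turned from slightly below 0 to above it.

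Some genes that were not called changed sign. Uqcrh became 0.022 with a pseudocount of 1, 0.29 as deposited, 0.27 with quantile normalization, 0.29 with voom on library totals, and between -0.39 and 0.077 without a library. Cox6b1 became 0.0082 as deposited and 0.083 with voom on library totals. Cox7a1 became -0.030 with no filter, and without a library lay between -2.58 and 2.24. Without a library, Cox7a2 fell as low as -0.49 and reached 3.02, and Cox4i1 lay between -0.072 and 0.28. The causes were not tested. Atp5c1 had 83 reads in Con and 363 in CS, and Cox4i2 had 0 and 8, so the estimates of low genes rest on few reads.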
